A study of Mus musculus with 4 samples.

Results

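The 10 genes described here are those of the interleukin 1 family and its receptors: the ligands Il1a, Il1b, Il18 and Il33, the secreted inhibitors Il1rn and Il18bp, and the receptor chains Il1r1, Il1r2, Il1rap and Il1rl1. They were chosen by name, with earlier results of these data known, and each was 1 of the 32285 genes counted in all 4 libraries. The cells came from mouse hearts and were sequenced in droplets with a 3' kit that tags each RNA molecule with a unique molecular identifier (UMI). There was 1 library for each of 4 groups. The first was sepsis plus low-level tragus stimulation, an electrical stimulation of the outer ear, called CLP plus stimulation here. The second was the sepsis model alone, made by a cecal ligation and puncture operation (CLP), in which gut bacteria leak into the abdomen. The other two were sham and a control, of which the labels say no more. The labels of all 4 libraries speak of all cells of the heart and name no allele or strain, and neither the number of animals in a library nor their age or sampling time is stated in the labels. The series title places the question in septic heart dysfunction and M2 macrophages, the macrophage state tied to repair.

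Interleukin 1 signalling starts when interleukin 1 alpha or beta binds the receptor Il1r1, which then recruits the accessory chain Il1rap and, through Myd88, activates NF-kB. The receptor antagonist made from Il1rn occupies Il1r1 without recruiting Il1rap, and Il1r2 binds the ligand but carries no signalling domain, so it acts as a decoy. Interleukin 18 is held in check by the binding protein Il18bp, and interleukin 33, a nuclear protein of stromal cells that is set free by damage, signals through Il1rl1 (also called ST2) together with Il1rap. Interleukin 1 is a known depressant of heart muscle contraction in sepsis. The RNA counts used here do not report the processing of the precursor proteins by inflammasomes. Nor do 3' counts separate membrane and soluble forms of Il1rl1 and Il1r2, or the forms made from Il1rn.

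In the GRCm38 build the members formed small groups along the chromosomes. Il1a (chr2:129299610-129309972) and Il1b (chr2:129364570-129371139) were neighbours on the minus strand, and Il1rn lay apart on the plus strand of the same chromosome (chr2:24336853-24351494). The receptor genes Il1r2 (chr1:40074079-40125231), Il1r1 (chr1:40225080-40317257) and Il1rl1 (chr1:40429570-40465415) followed each other on the plus strand. Il1rap was at chr16:26581704-26730117 (plus), Il18 at chr9:50554827-50581840 (plus), Il18bp at chr7:102014885-102018690 (minus) and Il33 at chr19:29925114-29960718 (plus).

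The sequences just upstream of Il1a, Il1b and Il1rn are shown because these genes, 2 ligands and the antagonist, were all higher in macrophage-like cells of CLP plus stimulation than in those of the other libraries. Each is the 250 bases before a RefSeq start site in GRCm38.p6, read 5′ to 3′ on the strand of the gene, and capitals mark matches to the motifs searched. They lie at chr2:129309973-129310222 (minus) for Il1a, chr2:129371140-129371389 (minus) for Il1b and chr2:24336610-24336859 (plus) for Il1rn.
Il1a: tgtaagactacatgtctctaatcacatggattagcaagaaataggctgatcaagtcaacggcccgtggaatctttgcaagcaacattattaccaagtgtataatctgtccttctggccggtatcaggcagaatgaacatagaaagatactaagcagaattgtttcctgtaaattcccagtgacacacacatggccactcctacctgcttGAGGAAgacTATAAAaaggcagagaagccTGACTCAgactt
Il1b: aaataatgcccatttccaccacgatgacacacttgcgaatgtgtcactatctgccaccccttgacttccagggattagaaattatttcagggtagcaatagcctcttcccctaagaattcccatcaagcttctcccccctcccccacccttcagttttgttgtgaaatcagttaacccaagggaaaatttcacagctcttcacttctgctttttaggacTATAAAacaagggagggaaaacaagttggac
Il1rn: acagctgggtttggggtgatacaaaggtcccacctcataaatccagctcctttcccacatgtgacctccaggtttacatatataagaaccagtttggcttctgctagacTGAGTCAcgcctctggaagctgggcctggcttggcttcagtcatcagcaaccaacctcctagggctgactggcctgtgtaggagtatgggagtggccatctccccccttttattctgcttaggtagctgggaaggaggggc
The motifs were searched on both strands in the same window of every gene. The TATA box TATAAA was present in 12.4% of 32841 windows, the AP-1 motif TGANTCA in 6.75%, the PU.1 motif GAGGAA in 23.3%, the C/EBP motif TTGCNNAA in 9.57%, an interferon-response motif (ISRE core) in 2.98% and an NF-kB motif in 3.90%. The windows of Il1a and Il1b both held TATAAA close to the start, from 32 to 27 bases before it in Il1a and from 31 to 26 bases before it in Il1b. In the Il1a window GAGGAA lay just before that TATA box, and TGACTCA lay between it and the start. The printed Il1rn window held TGAGTCA from 141 to 135 bases before the start. Il1rn had further windows, at chr2:24345041-24345290 and chr2:24345121-24345370 (plus), which held none of the motifs searched. Windows were found for 10 of 10 members, 15 windows in all. Such a match is a description of letters and not of bound factors.

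Of 43074 barcodes, 37540 were kept as cells: 8021 in CLP plus stimulation, 7720 in CLP, 8240 in sham and 13559 in control. Median depth in these groups was 4945, 5482, 5307 and 2995 UMIs per cell, so the control cells were the shallowest. The libraries shared 209 cell barcodes among them. A cell was placed in a class when it held UMIs of at least 3 of the markers listed for that class and led the next class by a share of at least 0.1 of the markers. No member of the family was a marker. Class names end in -like because they rest on markers. In no class with at least 50 cells did markers of another class outnumber its own among its 10 leading genes. The gate used those same markers, so this is no independent check of the names. The unassigned share was 20.3% in CLP plus stimulation, 10.4% in CLP, 7.10% in sham and 8.39% in control. Unassigned cells of CLP plus stimulation and CLP carried neutrophil markers at 12776 and 16347 CPM (counts scaled to a common total), against 3034 CPM in sham and 1260 CPM in control. Since every group was 1 library, differences could not be set against a spread between replicates and none was tested. Ranges in parentheses are 95% intervals, and counting error is all they cover.

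A member was counted as higher or lower in a class when its CPM, scaled by the UMIs of that class, differed by at least 2-fold between libraries with at least 20 UMIs over both, in classes with at least 50 cells in each. In CLP plus stimulation over CLP, 21 of 42 measured pairs of member and class were higher, where 10.6% of all gene and class pairs were, and 4 were lower, where 11.8% of all pairs were. In CLP over sham, 11 of 37 measured pairs were higher, where 5.8% of all pairs were, and 6 were lower, where 9.39% were. CLP plus stimulation over sham, which shares its libraries with those comparisons, had 26 of 45 pairs higher and 5 lower, where 13.5% and 17.7% of all pairs were. In sham over control, 0 of 31 pairs were higher and 1 was lower, where 2.9% and 2.45% of all pairs were. The libraries without sepsis were thus within 2-fold of each other in 30 of 31 pairs, and the exception was Il1b in T cell-like cells.

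**Figure D1:**
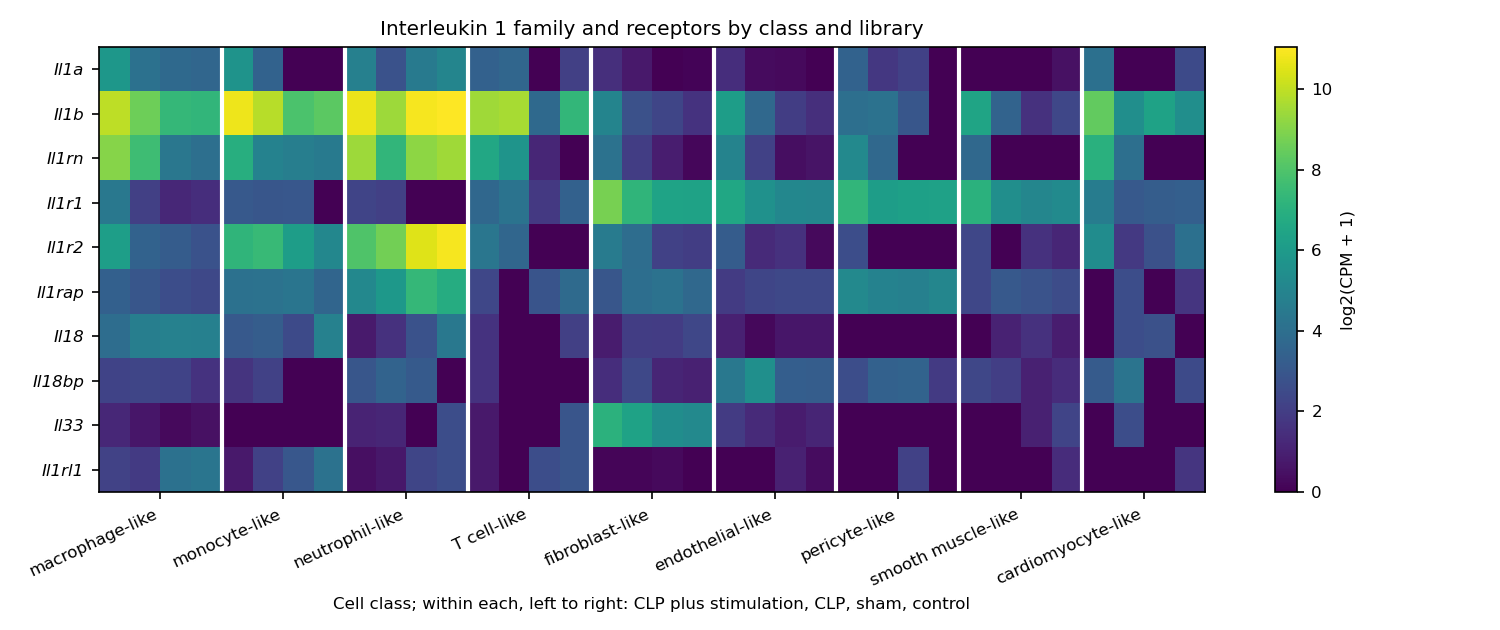
Level of each member, as log2(CPM + 1), in 9 cell classes, with the 4 libraries of a class from left to right as CLP plus stimulation, CLP, sham and control. Il1b, Il1rn and Il1r2 are brightest in the myeloid classes, Il1r1 in fibroblast-like and other stromal classes, and Il33 in fibroblast-like cells.

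Il1b, the main secreted ligand of activated myeloid cells, was the most counted member, with 42263 UMIs in CLP plus stimulation, 9518 in CLP, 4726 in sham and 3410 in control. Macrophage-like cells held 52.2%, 55.4%, 65.0% and 69.2% of these UMIs in the same order. In macrophage-like cells its level was 978 CPM (966 to 991) in CLP plus stimulation, 393 CPM (382 to 403) in CLP, 161 CPM (155 to 167) in sham and 155 CPM (149 to 161) in control. The levels thus stood in 2 steps above sham, 2.49-fold higher in CLP plus stimulation than in CLP and 2.44-fold higher in CLP than in sham, while sham and control overlapped in their intervals. The share of macrophage-like cells with an Il1b UMI, after every cell was thinned to 1000 UMIs, was 28.9% in CLP plus stimulation, 18.6% in CLP, 9.69% in sham and 9.13% in control. Without thinning it was 46.9% in CLP plus stimulation and 37.8% in CLP, against 21.6% in sham and 16.8% in control. Of the Il1b UMIs, 20.6% in CLP plus stimulation, 21.8% in CLP, 8.17% in sham and 12.0% in control lay in unassigned cells.

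Il1rn, which encodes the receptor antagonist, showed the largest difference between CLP and sham among the members measured in macrophage-like cells. Its level there was 518 CPM (509 to 528) in CLP plus stimulation, 192 CPM (185 to 199) in CLP, 19.5 CPM (17.6 to 21.6) in sham and 15.3 CPM (13.4 to 17.4) in control. The log2 ratio was 3.29 (3.14 to 3.46) in CLP over sham and 1.43 (1.372 to 1.496) in CLP plus stimulation over CLP. In thinned macrophage-like cells, 32.3% had an Il1rn UMI in CLP plus stimulation, 17.1% in CLP, 1.90% in sham and 1.23% in control. Unthinned, the share was 65.8% in CLP plus stimulation, 50.8% in CLP, 6.77% in sham and 3.52% in control, at median depths of 6769.5, 6846, 5729 and 3370 UMIs. Endothelial-like cells, in which free RNA would show, had a thinned share of 3.85% in CLP plus stimulation, 0.518% in CLP, 0.0631% in sham and 0.0345% in control, at median depths of 3561, 3652, 3371 and 2116 UMIs. The thinned shares of macrophage-like cells were thus above those of endothelial-like cells in every library. The part of free RNA in the Il1rn levels of either class was not tested.

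In macrophage-like cells the balance of antagonist and ligand RNA differed more between CLP and sham than between the septic libraries, and in neutrophil-like cells it differed more between the septic libraries. Il1rn made up 34.6% (34.1 to 35.1) of the summed Il1rn and Il1b UMIs of macrophage-like cells in CLP plus stimulation and 32.8% (31.8 to 33.9) in CLP, against 10.8% (9.81 to 11.9) in sham and 8.98% (7.91 to 10.1) in control. In neutrophil-like cells the share was 29.1% (28.0 to 30.3) in CLP plus stimulation, 18.1% (16.0 to 20.3) in CLP, 23.1% (20.8 to 25.6) in sham and 25.4% (21.8 to 29.2) in control. In monocyte-like cells it lay between 3.00% and 9.65% in all 4 libraries. Both genes are counted from the 3' end without length scaling, so the share is one of UMIs. Among thinned macrophage-like cells, 9.92% held UMIs of both genes in CLP plus stimulation, where the product of the single shares is 9.36%, and 3.18% did in CLP, where the product is also 3.18%. In neutrophil-like cells the cells with both were 28.8% against a product of 20.5% in CLP plus stimulation, 8.92% against 4.73% in CLP, 25.6% against 22.2% in sham and 19.2% against 20.7% in control.

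**Figure D2:**
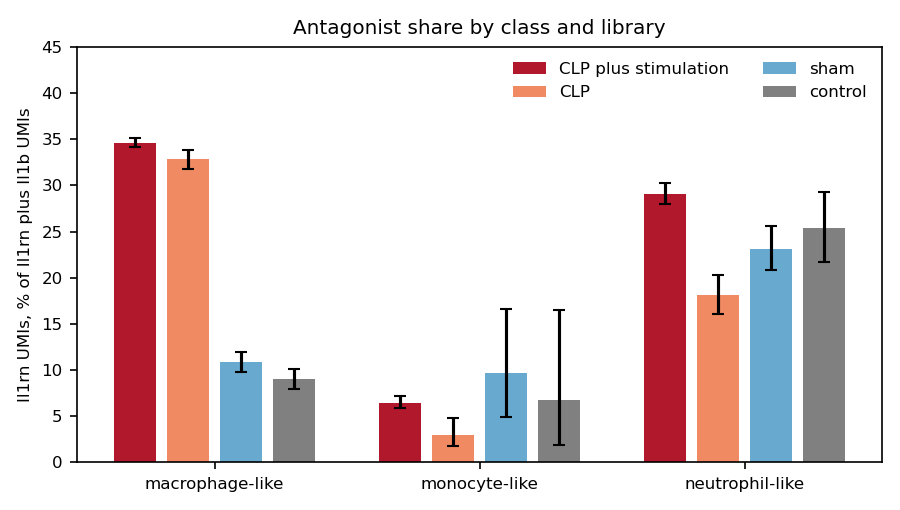
Il1rn UMIs as a percent of Il1rn plus Il1b UMIs (bars from 0, with exact binomial 95% intervals) in 3 myeloid classes and 4 libraries. In macrophage-like cells the bars of CLP plus stimulation and CLP, at 34.6% and 32.8%, are above those of sham and control, at 10.8% and 8.98%.

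Il1a, the membrane-bound and nuclear ligand, and Il1r2, the decoy, separated CLP plus stimulation from the other libraries in macrophage-like cells. Il1a was at 56.8 CPM (53.7 to 60.0) in CLP plus stimulation, 16.3 CPM (14.2 to 18.6) in CLP, 12.8 CPM (11.2 to 14.5) in sham and 11.5 CPM (9.83 to 13.3) in control. Il1r2 was at 71.1 CPM (67.6 to 74.6) in CLP plus stimulation, 10.2 CPM (8.56 to 12.0) in CLP, 8.38 CPM (7.13 to 9.79) in sham and 5.96 CPM (4.80 to 7.32) in control. In CLP plus stimulation over CLP these were 3.48-fold and 6.95-fold higher, whereas in CLP over sham neither reached 2-fold, with log2 ratios of 0.35 (0.08 to 0.62) for Il1a and 0.28 (-0.06 to 0.62) for Il1r2. Il1r1, the signalling receptor, was low in macrophage-like cells, at 20.6 CPM in CLP plus stimulation, 3.20 CPM in CLP, 1.31 CPM in sham and 1.70 CPM in control. Markers of fibroblasts, the class with the most Il1r1, summed to 316 CPM, 285 CPM, 353 CPM and 333 CPM in the macrophage-like cells of these libraries. The part of fibroblast RNA in the Il1r1 level of this class was not tested. The step of Il1r1 between CLP and sham, from 43 and 25 UMIs, was a log2 ratio of 1.28 (0.54 to 2.06) and was 0.38 when 5 CPM was added to both levels.

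Il1rl1 was lower in macrophage-like cells of both septic libraries, and Il18 in those of CLP plus stimulation. Il1rl1, the interleukin 33 receptor, was at 3.50 CPM (2.77 to 4.36) in CLP plus stimulation and 2.68 CPM (1.88 to 3.71) in CLP, against 16.3 CPM (14.6 to 18.3) in sham and 18.4 CPM (16.3 to 20.7) in control, a log2 ratio of -2.59 (-3.15 to -2.11) in CLP over sham. Il18 was at 14.5 CPM (13.0 to 16.1) in CLP plus stimulation, 25.7 CPM (23.1 to 28.6) in CLP, 28.1 CPM (25.8 to 30.6) in sham and 27.2 CPM (24.6 to 29.9) in control, so it was lower in CLP plus stimulation without reaching 2-fold. Il1rap, the shared accessory chain, stayed between 4.19 and 9.57 CPM, and Il18bp between 2.10 and 3.94 CPM. In all, 6 of 10 measured members were higher and 0 lower in macrophage-like cells of CLP plus stimulation over CLP, where 8.69% of all genes of the class were higher and 8.46% lower. In CLP over sham, 3 of 9 were higher and 1 was lower, where 5.27% and 17.7% of all genes were. The median log2 ratio of the measured members was 1.21 in CLP plus stimulation over CLP and 0.35 in CLP over sham, where the medians over all genes were 0.05 and -0.23.

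As a sum, the neutrophil markers in macrophage-like cells were higher in CLP than in sham and lower in CLP plus stimulation than in CLP. S100a8 and S100a9 made up most of that sum, and single markers did not all follow it. Trem1, Mmp8 and Ly6g were higher in CLP plus stimulation than in CLP, and Mmp9 and Cxcr2 were lower in CLP than in sham. Trem1 was at 132 CPM in CLP plus stimulation and 30.7 CPM in CLP. The 9 neutrophil markers, all of them detected, summed to 1717 CPM in macrophage-like cells of CLP plus stimulation and 2573 CPM in CLP, against 238 CPM in sham and 157 CPM in control. In macrophage-like cells with at most 1 neutrophil marker detected, a choice made after seeing the data, Il1b was at 802 CPM in CLP plus stimulation, 365 CPM in CLP, 158 CPM in sham and 152 CPM in control, from 1003, 608, 2851 and 4069 cells. Il1rn was at 478 CPM, 183 CPM, 20.1 CPM and 14.7 CPM in the same cells and order. The order of the libraries was the same in these cells. They were a far smaller part of the class in the septic libraries, with 1003 of 3252 cells in CLP plus stimulation. In sham they were 2851 of 3163. Each could still hold UMIs of 1 neutrophil marker, and the part of neutrophil RNA in these levels was not tested. Cells with a UMI of Timd4, Lyve1 or Folr2, genes of resident macrophages, had less Il1b than those without: 542 CPM against 1442 CPM in CLP plus stimulation, 209 CPM against 667 CPM in CLP, 94.4 CPM against 343 CPM in sham and 93.7 CPM against 311 CPM in control. Il1rn was nearly level across that split, at 556 CPM with such a UMI against 479 CPM without in CLP plus stimulation, 185 CPM against 202 CPM in CLP, and 19.7 CPM against 19.2 CPM in sham. Such cells were 1313 of 3252 in CLP plus stimulation, 786 of 1702 in CLP and 2142 of 3163 in sham, and they were deeper, with medians of 8649, 9183.5 and 6082.5 UMIs against 5398, 4867.5 and 4994 in the others.

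**Figure D3:**
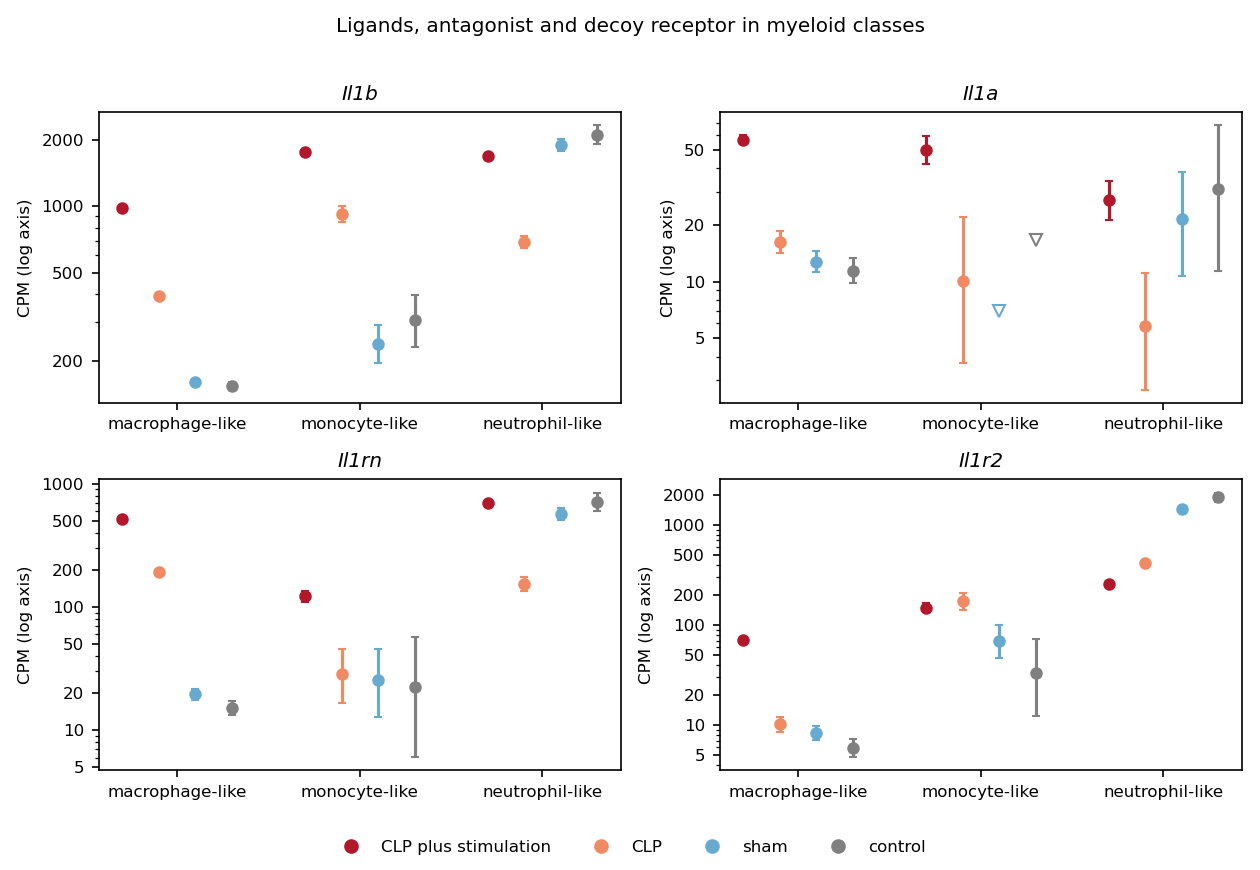
Levels (CPM, log axis) of Il1b, Il1a, Il1rn and Il1r2 in macrophage-like, monocyte-like and neutrophil-like cells of the 4 libraries, with exact Poisson 95% intervals. Open triangles mark the level of 3 UMIs where none was found. Macrophage-like levels step down from CLP plus stimulation through CLP to sham and control, while in neutrophil-like cells CLP is lowest for Il1b, Il1a and Il1rn, and Il1r2 is lower in both septic libraries.

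In neutrophil-like cells Il1b and Il1rn were lower in CLP than in sham, the reverse of macrophage-like cells. Neutrophils are short-lived phagocytes known for the decoy Il1r2. Il1b was at 1680 CPM (1631 to 1729) in CLP plus stimulation, 690 CPM (649 to 733) in CLP, 1887 CPM (1771 to 2010) in sham and 2104 CPM (1904 to 2319) in control. Il1rn was also lowest in CLP, at 690 CPM in CLP plus stimulation, 153 CPM in CLP, 568 CPM in sham and 715 CPM in control. CLP was thus the low library for the ligand and its antagonist, and CLP plus stimulation was near sham. The decoy Il1r2 was instead lowest in CLP plus stimulation, at 257 CPM (239 to 277) in CLP plus stimulation, 412 CPM (381 to 446) in CLP, 1428 CPM (1327 to 1535) in sham and 1897 CPM (1707 to 2101) in control. Il1rap was at 34.4 CPM in CLP plus stimulation, 58.4 CPM in CLP, 162 CPM in sham and 114 CPM in control. Both receptor genes were thus lower in both septic libraries than in sham and control.

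In CLP over sham, 0 of 6 members measured in neutrophil-like cells were higher, where 11.1% of all genes were, and 5 were lower, where 15.2% were. In CLP plus stimulation over CLP, 3 of 6 were higher (Il1a, Il1b and Il1rn), where 19.7% of all genes were, and 0 were lower, where 3.79% were. The median log2 ratio of the measured members was 0.33 in CLP plus stimulation over CLP and -1.63 in CLP over sham, where the medians over all genes were 0.42 and -0.16. With TMM scaling, which levels libraries on the bulk of their genes, Il1b was at a log2 ratio of 0.86 in CLP plus stimulation over CLP, under 2-fold, and in cells thinned to 1000 UMIs it was at -0.83 in CLP over sham. Il1a in CLP over sham rested on 9 UMIs in CLP and 11 in sham. The class held 444 cells in CLP plus stimulation, 228 in CLP, 190 in sham and 129 in control, of 4904.5, 5630, 2604 and 1446 median UMIs. Its neutrophil markers summed to 211266 CPM in CLP plus stimulation and 342894 CPM in CLP, against 183174 CPM in sham and 122386 CPM in control, and its monocyte markers to 3777 CPM and 2809 CPM, against 304 CPM and 295 CPM. S100a8 and S100a9 made up most of the neutrophil sums. Csf3r, Cxcr2, Mmp9 and Trem1 were instead lower in both septic libraries than in sham and control, while Mmp8 was higher. Csf3r was at 81.4 CPM in CLP plus stimulation and 164 CPM in CLP, against 1317 CPM in sham. Chil3 made up most of the septic monocyte sums, at 3191 and 2090 CPM, and Ccr2 was at most 5.84 CPM. Ngp led the class in both septic libraries and S100a9 in the others. The part of these markers in the result was not tested. In cells thinned to 1000 UMIs, 50.3% had an Il1b UMI in CLP plus stimulation, 30.5% in CLP, 64.3% in sham and 56.7% in control. An Il1r2 UMI was found in 17.7% of the thinned cells of CLP plus stimulation, 28.2% in CLP, 68.5% in sham and 76.9% in control.

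Monocyte-like cells, of which there were 156 in CLP plus stimulation, 52 in CLP, 53 in sham and 42 in control, had Il1b at 1754 CPM (1706 to 1804), 926 CPM (851 to 1007), 239 CPM (195 to 290) and 306 CPM (231 to 398) in that order. Il1rn was at 122 CPM (109 to 135) in CLP plus stimulation, 28.7 CPM (16.7 to 45.9) in CLP, 25.5 CPM (12.7 to 45.7) in sham and 22.3 CPM (6.06 to 57.0) in control, so the intervals of CLP, sham and control overlapped. Il1a was at 50.1 CPM in CLP plus stimulation and 10.1 CPM in CLP, and had 0 UMIs in sham and control, which allows up to 6.96 CPM in sham and 16.7 CPM in control. Neutrophil markers summed to 11373 CPM and 19326 CPM in the monocyte-like cells of CLP plus stimulation and CLP, against 1411 CPM in sham and 250 CPM in control. Their part in these levels was not tested. The class was led, in CLP plus stimulation, by Elane, Prtn3, Ly6c2 and Ctsg, of which Ly6c2 alone was a listed monocyte marker.

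Il1r1, the receptor that receives the ligand, was mainly a gene of stromal cells. Fibroblast-like cells held 79.7% of its UMIs in CLP plus stimulation, 76.1% in CLP, 70.4% in sham and 67.5% in control. Its level there was 439 CPM (426 to 452) in CLP plus stimulation, 147 CPM (141 to 153) in CLP, 83.1 CPM (78.3 to 88.2) in sham and 80.5 CPM (75.9 to 85.2) in control. The log2 ratio was 1.58 (1.51 to 1.65) in CLP plus stimulation over CLP and 0.82 (0.72 to 0.92) in CLP over sham. In thinned fibroblast-like cells, an Il1r1 UMI was found in 32.8% in CLP plus stimulation, 12.6% in CLP, 8.69% in sham and 7.90% in control. Endothelial-like cells followed the same order at lower levels, with 94.2 CPM (83.4 to 106) in CLP plus stimulation, 47.6 CPM (43.7 to 51.7) in CLP, 33.0 CPM (29.3 to 37.1) in sham and 32.8 CPM (29.4 to 36.5) in control. Macrophage-like cells, at 2.83% in CLP plus stimulation, 0.183% in CLP, 0.271% in sham and 0.0840% in control, had far smaller thinned shares with an Il1r1 UMI. Pericyte-like cells had 153 CPM (103 to 218) in CLP plus stimulation and between 70.5 and 77.9 CPM in the other libraries.

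The accessory chain was lowest in CLP plus stimulation in fibroblast-like cells. Il1rap was at 6.76 CPM (5.27 to 8.53) in CLP plus stimulation, 14.8 CPM (13.1 to 16.7) in CLP, 16.6 CPM (14.5 to 19.0) in sham and 12.5 CPM (10.7 to 14.4) in control. The decoy Il1r2 was at 22.8 CPM (19.96 to 25.9) in CLP plus stimulation and 14.5 CPM (12.8 to 16.4) in CLP, against 3.33 CPM (2.42 to 4.47) in sham and 3.06 CPM (2.23 to 4.10) in control. As a share of Il1r2 plus Il1r1 UMIs in this class it was 4.93% in CLP plus stimulation, 9.01% in CLP, 3.85% in sham and 3.67% in control, so Il1r1 remained the main receptor RNA of fibroblast-like cells throughout. In macrophage-like cells the same share lay between 76.1% and 86.5%, and in neutrophil-like cells it was at least 98.6%.

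Il33, the alarmin of stromal cells, had nearly all of its UMIs in fibroblast-like cells. That class held 89.6% of its UMIs in CLP plus stimulation, 96.8% in CLP, 95.2% in sham and 90.9% in control. It was at 136 CPM (129 to 143) in CLP plus stimulation, 80.3 CPM (76.2 to 84.6) in CLP, 41.7 CPM (38.3 to 45.3) in sham and 36.1 CPM (33.1 to 39.3) in control. Neither step reached 2-fold, at log2 ratios of 0.76 (0.65 to 0.87) in CLP plus stimulation over CLP and 0.95 (0.80 to 1.09) in CLP over sham, but CLP plus stimulation was 3.26-fold above sham. In thinned fibroblast-like cells, 8.84% had an Il33 UMI in CLP plus stimulation, 4.84% (3.94 to 5.88) in CLP, 4.07% (3.17 to 5.14) in sham and 3.31% in control. At most 0.233% of thinned macrophage-like cells had one. Unthinned, the fibroblast-like share was 22.9% in CLP plus stimulation, 20.5% in CLP, 20.5% in sham and 11.5% in control. Median depths were 7622, 8695, 7681 and 4444.5 UMIs. The step in level between CLP and sham was thus not matched by a clear step in the share of cells. By level, mesothelial-like cells of CLP plus stimulation were higher than fibroblast-like cells, at 289 CPM (214 to 382) from 12 cells. Lymphatic endothelial-like cells had 46.4 CPM (25.4 to 77.9) in control, from 58 cells, and were below fibroblast-like cells in the other libraries. Macrophage-like cells held 30 Il33 UMIs in CLP plus stimulation and 8 in CLP, a log2 ratio of 1.10 that was -0.41 with classes taken from clusters. Its receptor Il1rl1 was highest in small classes: ILC2-like cells, innate lymphoid cells that interleukin 33 activates, had 287 CPM (203 to 393) in CLP plus stimulation, 135 CPM (64.9 to 249) in CLP, 308 CPM (176 to 500) in sham and 405 CPM (240 to 641) in control, from 22, 13, 10 and 14 cells. Mast cell or basophil-like cells had 438 CPM (161 to 952) in CLP plus stimulation, 1320 CPM (934 to 1812) in CLP, 1292 CPM (900 to 1797) in sham and 623 CPM (311 to 1114) in control, from 4 to 12 cells a library.

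**Figure D4:**
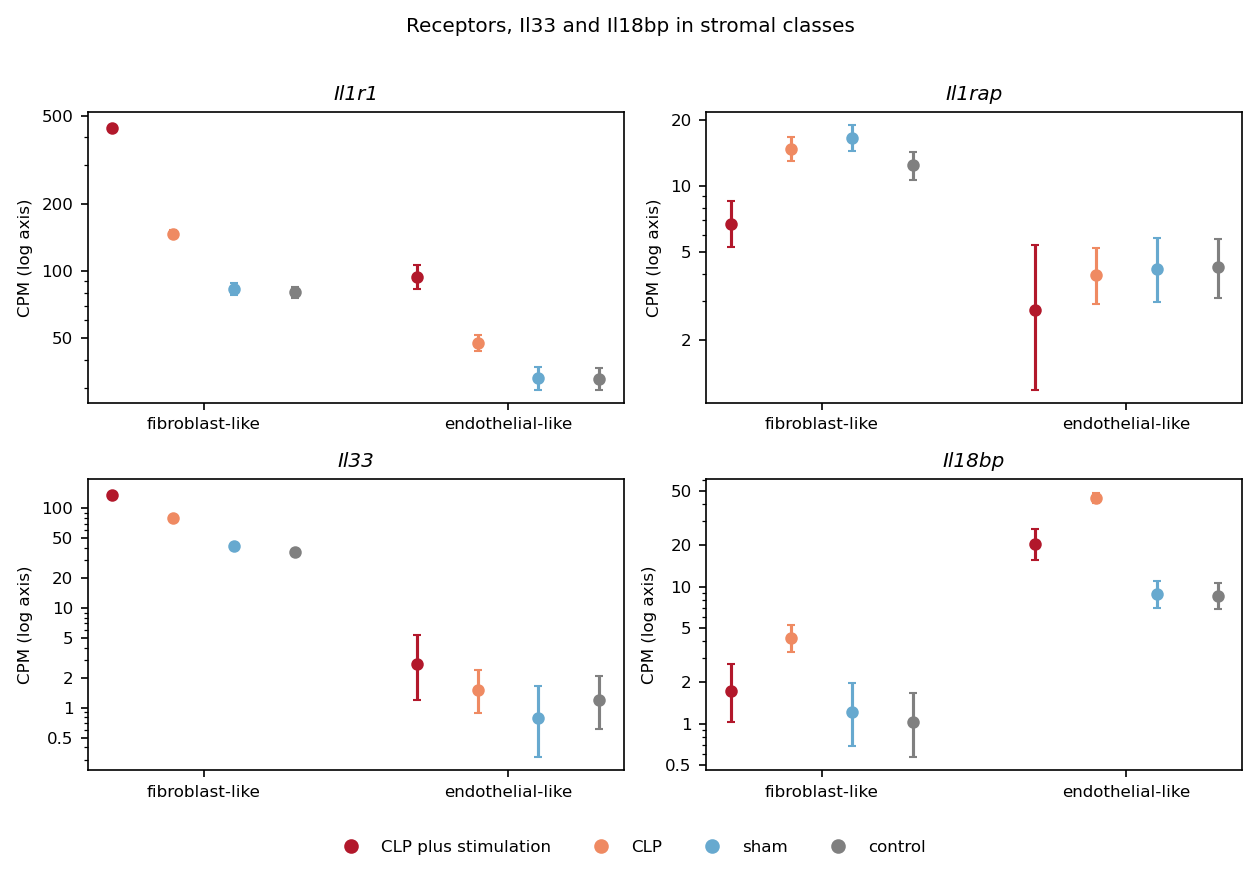
Levels (CPM, log axis) of Il1r1, Il1rap, Il33 and Il18bp in fibroblast-like and endothelial-like cells of the 4 libraries, with exact Poisson 95% intervals. Il1r1 and Il33 are highest in CLP plus stimulation in fibroblast-like cells, where Il1rap is lowest, and Il18bp is highest in CLP in both classes.

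Il18bp, which neutralises interleukin 18, had its highest level in CLP in both stromal classes. In endothelial-like cells it was at 20.6 CPM (15.7 to 26.5) in CLP plus stimulation, 44.4 CPM (40.7 to 48.3) in CLP, 8.77 CPM (6.92 to 10.96) in sham and 8.55 CPM (6.84 to 10.6) in control. The log2 ratio was -1.10 (-1.52 to -0.72) in CLP plus stimulation over CLP and 2.33 (1.99 to 2.70) in CLP over sham. Fibroblast-like cells had the same order at lower levels, 1.74 CPM in CLP plus stimulation, 4.21 CPM in CLP, 1.21 CPM in sham and 1.02 CPM in control. Il18 itself came from macrophage-like cells, which held between 77.6% and 84.5% of its UMIs.

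In fibroblast-like cells, 4 of 9 measured members were higher and 3 lower in CLP plus stimulation over CLP, where 5.07% of all genes were higher and 16.9% lower. In CLP over sham, 3 of 8 were higher and 0 lower, where 3.71% and 7.46% of all genes were. In endothelial-like cells, 3 of 7 were higher and 1 lower in CLP plus stimulation over CLP, where 9.27% and 19.3% of all genes were, and 3 of 7 were higher and 0 lower in CLP over sham, where 4.48% and 7.03% of all genes were. These counts include Il1b and Il1rn, which were low in both classes, at 70.2 and 29.5 CPM in endothelial-like cells of CLP plus stimulation and 12.4 and 3.44 CPM in those of CLP. In endothelial-like cells of CLP plus stimulation, 5 of 594 cells held 65.4% of the Il1b UMIs. Several of these calls ended under an alternative. In endothelial-like cells of CLP over sham the log2 ratio of Il1b was 0.75 with classes from clusters, against 2.05, and that of Il1rn was 0.66 with 5 CPM added to both levels, against 3.13. With 5 CPM added, all 3 lower calls in fibroblast-like cells of CLP plus stimulation over CLP ended, at -0.47 for Il18, -0.45 for Il18bp and -0.75 for Il1rap, and so did the higher call of Il1a, at 0.27. The same addition ended the calls of Il1rn, at 0.46, and Il18bp, at 0.57, in fibroblast-like cells of CLP over sham, and in CLP plus stimulation over CLP that of Il18bp in endothelial-like cells, at -0.95. Neutrophil markers summed to 642 CPM and 458 CPM in endothelial-like cells of CLP plus stimulation and CLP, against 105 CPM in sham and 28.9 CPM in control, and to 573 CPM and 321 CPM in fibroblast-like cells, against 128 CPM and 28.5 CPM. Their part in those values was not tested.

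**Figure D5:**
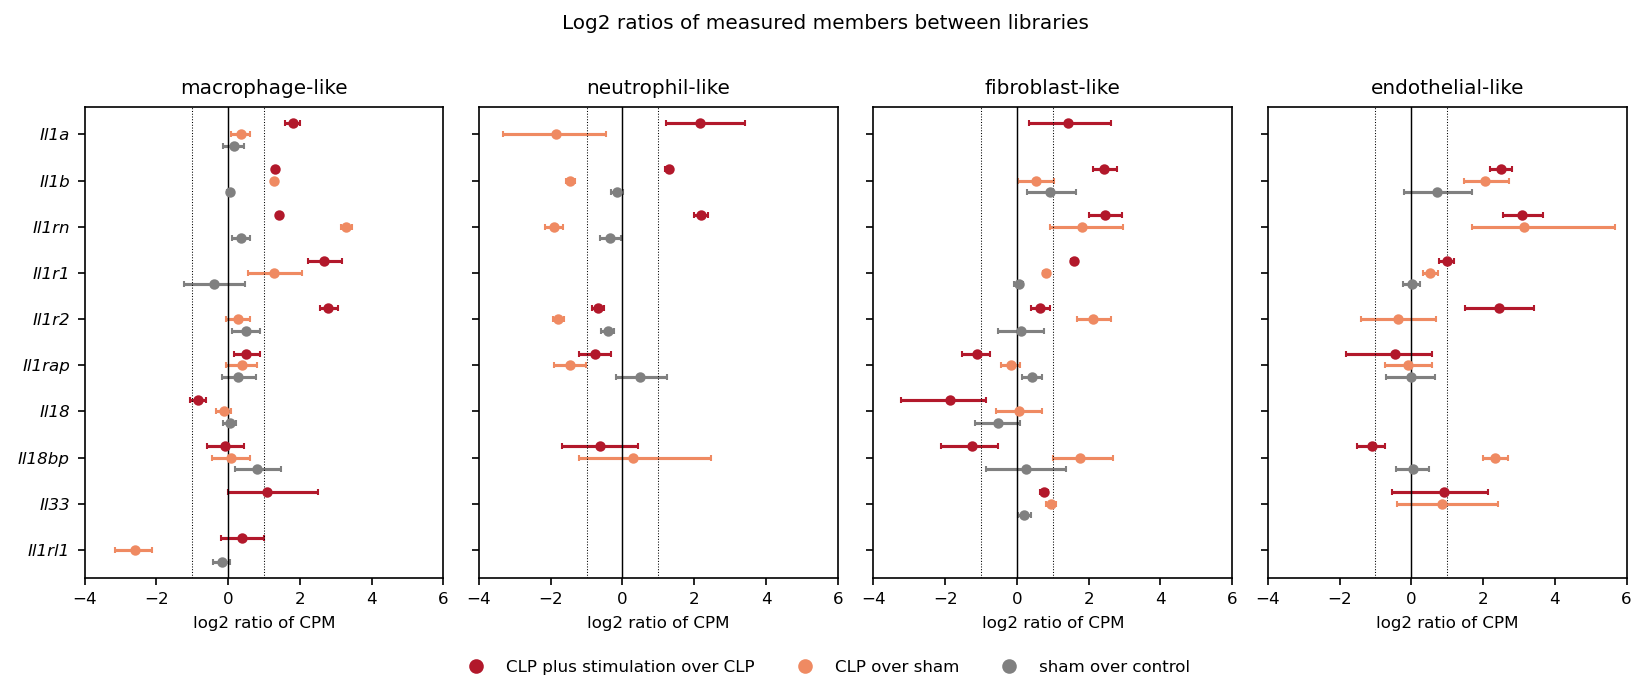
Log2 ratio of CPM with 95% counting intervals for the members measured in 4 classes, for CLP plus stimulation over CLP, CLP over sham and sham over control; dotted lines mark 2-fold. In CLP over sham, Il1b, Il1rn, Il1a, Il1r2 and Il1rap lie right of 0 in macrophage-like cells and left of 0 in neutrophil-like cells. In macrophage-like cells Il1a, Il1r2 and Il1rap were within 2-fold.

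In the classes with little Il1b much of its count sat in few cells. In endothelial-like cells the 5 cells with the most held 65.4% of the 205 UMIs in CLP plus stimulation, 44.6% in CLP, 42.3% in sham and 9 of 18 UMIs in control. In fibroblast-like cells they held 22.3% in CLP plus stimulation, 30.7% in CLP, 71.2% in sham and 63.3% in control. In T cell-like cells it was at 704 CPM in CLP plus stimulation, 12.8 CPM in sham and 159 CPM in control, but 5 of 209 cells held 55.4% of the 1013 UMIs in CLP plus stimulation, and 1 of 87 cells held 46 of the 49 UMIs in control. The 1 pair that differed by 2-fold in sham over control therefore rested on a single cell. In B cell-like cells of CLP plus stimulation 182 of 199 UMIs were in 1 cell. In macrophage-like cells the 5 cells with the most Il1b held between 5.58% and 8.32% of the UMIs. In cardiomyocyte-like cells of CLP plus stimulation, of which there were 80 with a median of 791 UMIs, 7 cells held all 42 UMIs.

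The other genes of the pathway came from 4 lists named with earlier results known. Of 25 signal adaptors and feedback genes, all measured in macrophage-like cells, 3 were higher and 0 lower in CLP plus stimulation over CLP, where 8.69% of all genes of the class were higher and 8.46% lower. By comparison, 1 was higher and 3 were lower in CLP over sham, where 5.27% and 17.7% of all genes were, so these counts were near the background. The highest in CLP over sham was Irak3, a kinase-like inhibitor of the receptor complex, at 118 CPM in CLP and 14.5 CPM in sham, followed by Tnip1 at 33.7 CPM in CLP and 18.3 CPM in sham. The lowest were Peli3, at 0.818 CPM in CLP and 2.15 CPM in sham, and Mapk14, the kinase p38 alpha, at 30.8 CPM in CLP and 75.8 CPM in sham. In CLP plus stimulation over CLP the highest were Peli2, at 22.3 CPM in CLP plus stimulation and 5.13 CPM in CLP, and Tnfaip3, which encodes the NF-kB inhibitor A20, at 968 CPM in CLP plus stimulation and 378 CPM in CLP. In endothelial-like cells 7 of 24 were higher and 3 lower in CLP plus stimulation over CLP, where 9.27% and 19.3% of all genes were, with Tnip1 at 351 CPM in CLP plus stimulation and 76.5 CPM in CLP. In neutrophil-like cells 8 of 23 were higher and 0 lower in CLP plus stimulation over CLP, led by Irak3 at 470 CPM in CLP plus stimulation and 173 CPM in CLP, where 19.7% of all genes were higher and 3.79% lower. In that class 1 of 20 was higher and 4 were lower in CLP over sham, where 11.1% and 15.2% of all genes were.

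Of 14 genes of processing and release, 5 were higher and 3 lower in macrophage-like cells of CLP plus stimulation over CLP, where 8.69% and 8.46% of all genes were. Of 12 measured in CLP over sham 1 was higher and 1 lower, where 5.27% and 17.7% of all genes were. Pycard, the adaptor of the inflammasome, was at 153 CPM in CLP plus stimulation, 508 CPM in CLP and 147 CPM in sham. Nlrp3, the sensor of the same complex, was at 291 CPM in CLP and 160 CPM in sham. In neutrophil-like cells Nlrp3 was at 218 CPM in CLP, against 841 CPM in sham (log2 ratio -1.95, -2.16 to -1.74), and Pycard was at 171 CPM in CLP and 25.3 CPM in sham. Highest of this list in CLP plus stimulation over CLP were Ctsg and Prtn3, which encode neutrophil serine proteases able to cleave the precursors. They were at 18.3 and 22.2 CPM in macrophage-like cells of CLP plus stimulation, against 0 and 1.12 CPM in those of CLP. Both were also among the leading genes of monocyte-like cells of CLP plus stimulation. The part of RNA from other cells in these levels was not tested. In neutrophil-like cells 6 of 13 measured genes of this list were higher and 0 lower in CLP plus stimulation over CLP, where 19.7% and 3.79% of all genes were, and 3 of 9 were higher and 2 lower in CLP over sham, where 11.1% and 15.2% were.

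Of 19 genes known to respond to interleukin 1, 12 of 16 measured in endothelial-like cells were higher and 0 lower in CLP plus stimulation over CLP, where 9.27% and 19.3% of all genes were. Of 15 measured in CLP over sham 9 were higher and 0 lower, where 4.48% and 7.03% of all genes were. Their median log2 ratios were 1.59 and 1.40, where the medians over all genes of the class were -0.14 and -0.15. In fibroblast-like cells 5 of 17 were higher and 0 lower in each of these comparisons, with median log2 ratios of 0.62 and 0.45. Of all genes of that class, 5.07% were higher and 16.9% lower in CLP plus stimulation over CLP, and 3.71% and 7.46% in CLP over sham. Csf3, the growth factor for neutrophils, was among the highest in both classes, at 141 CPM in endothelial-like cells of CLP plus stimulation and 3.61 CPM in those of CLP, and at 55.2 CPM in fibroblast-like cells of CLP plus stimulation and 6.34 CPM in those of CLP. Saa3 and Lcn2, acute-phase genes, were the highest in CLP over sham, with Lcn2 at 2837 CPM in fibroblast-like cells of CLP and 3.71 CPM in those of sham. The lowest in fibroblast-like cells were Ptgs2, at 188 CPM in CLP plus stimulation and 280 CPM in CLP, and in CLP over sham Ccl2, at 241 CPM in CLP and 400.1 CPM in sham. In macrophage-like cells 7 of 17 were higher and 0 lower in CLP plus stimulation over CLP, where 8.69% and 8.46% of all genes were, and 6 of 16 were higher and 2 lower in CLP over sham, where 5.27% and 17.7% were. In neutrophil-like cells 7 of 14 were higher and 0 lower in CLP plus stimulation over CLP, where 19.7% and 3.79% of all genes were. Of 11 measured there in CLP over sham 3 were higher and 3 lower, where 11.1% and 15.2% of all genes were, with Ptgs2 at 27.9 CPM in CLP and 449 CPM in sham. Other stimuli of sepsis act on these genes too. Of the 11 remaining family members and receptors, 3 were measured in macrophage-like cells of CLP plus stimulation over CLP, and the highest was Il18rap, the second chain of the interleukin 18 receptor, at 23.8 CPM in CLP plus stimulation and 7.81 CPM in CLP.

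The genes most like single members in pattern were found by Pearson's r of log2(CPM + 5) over 38 combinations of class and library with at least 50 cells, among 7600 genes that reached 50 CPM in at least 1 of them. These points share libraries and classes, and r is a description. Il1b was most like Spi1 (r = 0.946), Pik3ap1 (r = 0.942) and Snx20 (r = 0.941), and Il1rn most like Clec4d (r = 0.940), Slc15a3 (r = 0.922) and Nlrp3 (r = 0.912). Il1r2 was most like Slc7a11 (r = 0.967), Slpi (r = 0.954) and Cd300lf (r = 0.951). Il33 was most like Lrrn4cl (r = 0.952), Ackr2 (r = 0.946) and Gm17167 (r = 0.910). For Il1rl1 the nearest genes were less close, Blnk (r = 0.793), Clec10a (r = 0.786) and Ly86 (r = 0.777), and its level was at most 18.4 CPM in these combinations.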

How the data were processed

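Heart cells were measured with the 10x Chromium 3' kit in 4 libraries, 1 per group, so no test, SD or leave-one-out value was possible. The deposited values are raw UMI counts per gene and barcode, for which the file headers name Cell Ranger 5.0.0; STAR and mm10 are named in the submitters' processing notes. Barcodes were already filtered to at least 500 UMIs. From these counts, cells with at least 200 genes and at most 20% mitochondrial UMIs were kept, and the highest Scrublet doublet scores were left out at 0.8% per 1000 barcodes (7.07% in CLP plus stimulation, 6.99% in CLP, 7.63% in sham and 12.8% in control), using scanpy 1.11.5. Library totals ran from 54611436 to 59465046 UMIs. Cells were gated by listed markers of 20 classes; the gate's cut-offs were settled after the data were seen, and 2730 cells lay near the lead of 0.1. Gate and clusters (30, of which 22 were named) gave the same class for 98.5% of cells named by both. A cluster took its name from the most common gate class of its cells, so this agreement is partly built in.

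UMIs were summed per class and library as CPM of the class (exact Poisson intervals); a prior count of 0.5 and exact conditional binomial intervals served for log2 ratios, and shares exact Clopper-Pearson intervals, all at 95% and for counting error only. The 3' counts were not scaled by length. The true ratio lay inside the interval for 94.5% to 97.5% of 200 changed genes in counts simulated for 4 classes in CLP over sham and CLP plus stimulation over CLP. Those counts were drawn as independent Poisson counts, the model behind the interval. The simulation therefore checks the computation and does not cover UMIs that sit in few cells. A second simulation drew cells from the summed counts of CLP classes and passed them through the gate. Monocyte-like cells regained their class in 47.7% at 1000 UMIs and 73.3% at 3000 UMIs. The other simulated classes regained theirs in 86.3% to 100%. TMM factors came from edgeR 4.0.16. The members and lists were chosen with earlier results of these data known. All 10 members were named; in each list the 2 highest and 2 lowest measured genes of a class could be named, and for the genes most alike the 3 highest r. Coordinates are from GENCODE on GRCm38, and promoter sequences from RefSeq.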

Additional observations from a re-analysis of the deposited data

Results flagged for a closer look

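Between cell classes, 3 members had log2 ratios of opposite sign in CLP over sham, each at least 2-fold, with neutrophil-like cells on the lower side. Each value given here is the difference of 2 log2 ratios, with the other class first and neutrophil-like cells subtracted, and none of these differences was tested. For Il1b the difference was 2.74 in macrophage-like, 3.4 in monocyte-like and 3.5 in endothelial-like cells. For Il1rn it was 5.19 in macrophage-like, 3.71 in fibroblast-like and 5.02 in endothelial-like cells. For Il1r2 it was 3.91 in fibroblast-like and 3.1 in monocyte-like cells. Some of the ratios behind these values were under 2-fold under an alternative: Il1b was at 0.75 in endothelial-like cells with classes from clusters and at -0.83 in thinned neutrophil-like cells, and with 5 CPM added Il1rn was at 0.66 in endothelial-like cells and at 0.46 in fibroblast-like ones.

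In CLP plus stimulation over sham, Il1r2 alone among the members had this split. Its differences from neutrophil-like cells were 5.55 in macrophage-like, 3.55 in monocyte-like, 5.23 in fibroblast-like, 4.55 in endothelial-like and 7.43 in T cell-like cells. The last of these sets a count of 0 in T cell-like cells of sham against those of CLP plus stimulation, where the ratio itself is at least 5.08-fold, so it depends on the prior count and is no bound. With every deposited barcode the log2 ratio of Il1r2 was 1.27 in T cell-like cells, below that bound, and 0.82 in endothelial-like cells, against 2.07. With 5 CPM added it was 0.93 in endothelial-like cells, with classes from clusters 0.90, and with TMM scaling 0.78 in monocyte-like cells.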

How the results depend on the processing

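Over the 4 comparisons 74 pairs of member and class were at least 2-fold apart. Of these, 58 stayed past 2-fold in the same direction with 5 CPM added to both levels, 70 with TMM scaling, 70 with every deposited barcode, 46 in thinned cells, 56 with the stricter gate, 51 with classes from clusters and 57 in cells with at most 1 neutrophil marker, an alternative chosen after seeing the data; under the last 4, 67, 32, 34 and 32 of 155 measured pairs had no value. Among those 74 pairs signs turned in 2, and the cause was not tested. Il1b in cardiomyocyte-like cells, CLP plus stimulation over sham, was -0.66 with the stricter gate. Il33 in macrophage-like cells, CLP plus stimulation over CLP, was -0.41 with classes from clusters. Over all measured pairs, signs changed in 3 with 5 CPM added, 7 with TMM scaling and 14 with every deposited barcode. They changed in 9 in thinned cells, 7 with the stricter gate, 11 with clusters and 4 in cells with at most 1 neutrophil marker.

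The following counts of higher or lower pairs moved by over 1.5 times. With 5 CPM added, which shrinks ratios of low levels, 7 pairs were higher in CLP over sham, 0 lower in CLP plus stimulation over CLP and 3 lower in CLP plus stimulation over sham. With no count minimum, 24 were higher and 13 lower in CLP over sham, 15 and 17 in sham over control, and 46 and 13 in CLP plus stimulation over sham. In thinned cells, 5 were higher in CLP over sham, 2 lower in CLP plus stimulation over CLP, and 1 higher and 0 lower in sham over control. In sham over control, 2 were higher with every barcode, with the stricter gate and with clusters, where 0 were lower, and 2 were lower in cells with at most 1 neutrophil marker. In CLP plus stimulation over sham, 16 were higher with clusters and 17 in cells with at most 1 neutrophil marker. At 1.5-fold, 8 were lower in CLP plus stimulation over CLP and 4 higher in sham over control.

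In macrophage-like cells Il1b in CLP over sham ranged from 1.08 to 1.51 and Il1rn from 3.00 to 3.52 over all settings, and in fibroblast-like cells Il1r1 in CLP plus stimulation over CLP ranged from 1.55 to 1.78. No paired analysis was possible because each group had 1 library, and for the same reason no library could be left out.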
